A study of Pan troglodytes with 8 samples.

Results

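The levels of 9 transcription factors that pattern the telencephalon were followed across sorted cells of chimpanzee cerebral organoids, out of 60583 named genes in the count table on the chimpanzee genome. Chosen by symbol, 6 of them are dorsal cortical factors (EMX1, EMX2, LHX2, PAX6, NR2F1 and SP8) and 3 belong to the cortical hem, caudal or ventral territories (OTX2, LMX1A and DLX2). All 9 had a row, and all 9 passed the filter on low counts. The cells came from organoids of 1 chimpanzee induced pluripotent stem cell line, SandraA, grown as whole spheres and taken at week 8 of culture, within 3 days either side. Fluorescence-activated sorting gave 4 populations with 2 libraries each, numbered replicate 1 and replicate 2: N (neurons, positive for BCL11B), bIP (basal intermediate progenitors), bRG (basal radial glia) and aRG (apical radial glia). Each library was built from the RNA of 10000 cells with a Smart-seq2 type protocol. Whether the replicates are separate organoid cultures is not stated in the labels, and the p-values therefore rest on library-to-library spread that could be technical.

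The cerebral cortex grows from the dorsal telencephalon, where homeobox and zinc-finger factors set the identity of the field and, in mouse, form gradients across it. At its medial edge lies the cortical hem, a source of WNT and BMP signals that borders the choroid plexus, and below it lies the ventral telencephalon, which makes GABAergic neurons. Apical radial glia line the ventricle. They give rise to basal radial glia, to intermediate progenitors and, directly or through these, to neurons, and several patterning factors are known to be shut off on that route while others stay on.

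Library totals were 24649971 to 33245892 counts on the chimpanzee genome. Levels are counts scaled to library size (CPM) with TMM scaling, and they are compared for a gene across populations, not between genes, since transcript lengths were not used. The sort labels were set against marker lists. All 7 radial glia markers were called lower in N than in aRG, and 5 of 6 neuron markers were called higher in N than in aRG (BCL11B, NEUROD6, DCX, RBFOX3 and STMN2). In that comparison 9.67% of all genes were called in either direction. N was sorted as positive for BCL11B, so BCL11B is no independent check of that label. EOMES, the defining factor of intermediate progenitors, reached 1357 and 1540.3 CPM in bIP, against 49.1 and 122 CPM in bRG and 90.4 and 184 CPM in aRG. None of the 5 basal radial glia markers was called between bRG and aRG, and HOPX stood at 33.5 and 28.2 CPM in bRG and 41.9 and 49.7 CPM in aRG, so the markers fixed here did not set bRG apart from aRG. In this bulk material, fewer cells of a type and less RNA per cell cannot be told apart.

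PAX6, a paired-box factor of dorsal progenitors that in mouse opposes the ventral programme, had 15.3 and 6.00 CPM in N, 122 and 101 CPM in bIP, 176 and 145 CPM in bRG, and 228 and 158 CPM in aRG (replicates 1 and 2). Both N libraries lay far below every progenitor library. The 2 bIP libraries lay below both bRG and both aRG libraries, and bRG and aRG overlapped. The difference among the 4 populations passed the test (edgeR quasi-likelihood F test over all genes, F = 33.7, adjusted p = 0.000414). PAX6 fell in N against each of the other populations, by 3.38 on the log2 scale against bIP (SE 0.41, edgeR adjusted p = 0.0013), by 3.91 against bRG (SE 0.42, adjusted p = 0.000178) and by 4.18 against aRG (SE 0.43, adjusted p = 7.23e-05). In linear terms its mean was 18.1 times lower in N than in aRG on the fitted scale. Among progenitors the log2 differences were -0.53 for bIP over bRG (SE 0.37), -0.80 for bIP over aRG (SE 0.37, edgeR adjusted p = 0.392) and -0.26 for bRG over aRG (SE 0.37), and none passed the test. The log2 differences from bIP, bRG and aRG were -4.21, -4.75 and -5.01 without N replicate 1, and -2.85, -3.39 and -3.65 without N replicate 2, and all passed.

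**Figure D1:**
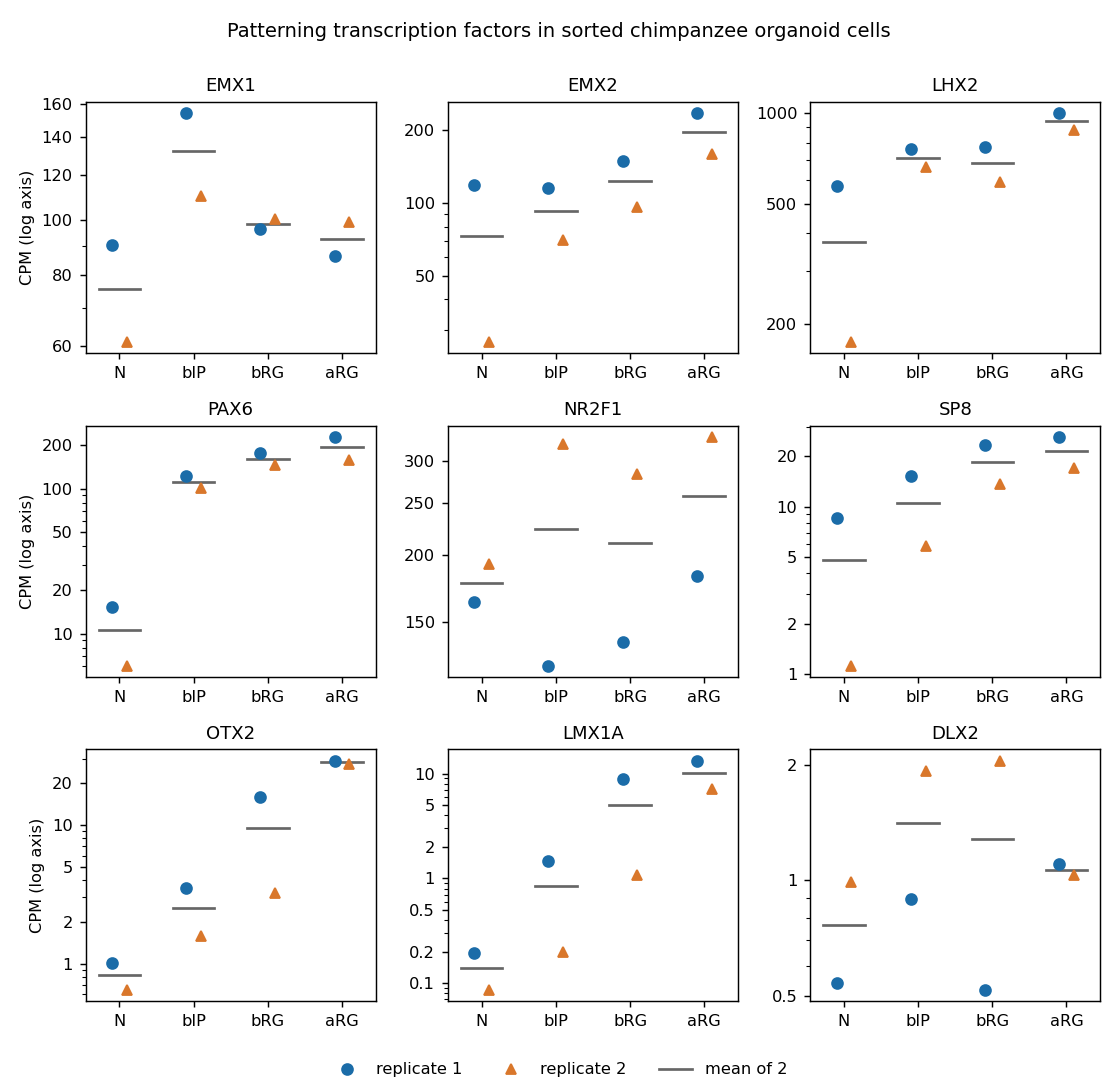
CPM of the 9 patterning factors (vertical log axis, each panel with its own range) in N, bIP, bRG and aRG; circles are replicate 1, triangles replicate 2, and lines the mean of 2. PAX6, LHX2, OTX2 and LMX1A have both N libraries below all progenitor libraries, though N replicate 1 and bIP replicate 2 are nearly equal for LMX1A. EMX1 has its 2 highest values in bIP, and NR2F1 separates by replicate number, with replicate 2 higher in all 4 populations.

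EMX1 and EMX2 are paralogous homeobox factors of the dorsal telencephalon. In mouse, EMX1 persists in cortical excitatory neurons, while EMX2 is confined more to progenitors and forms a gradient that is high caudally. EMX1 had 90.2 and 61.1 CPM in N, 154 and 110.0 CPM in bIP, 96.4 and 100.3 CPM in bRG, and 86.4 and 99.1 CPM in aRG. It was the only one of the 9 whose bIP libraries both lay above those of bRG and of aRG, and its N and aRG libraries overlapped. No difference of EMX1 passed the test: the log2 difference was -0.80 for N over bIP (SE 0.28, edgeR adjusted p = 0.185), 0.43 for bIP over bRG (SE 0.28, adjusted p = 0.791) and 0.51 for bIP over aRG (SE 0.28, adjusted p = 0.489). The order of its mean levels, from 75.6 ± 20.6 CPM in N through 92.8 ± 8.96 in aRG and 98.3 ± 2.77 in bRG to 132.0 ± 31.2 in bIP (SD, n = 2 each), therefore held no pair of neighbours that differed beyond the spread by this test.

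EMX2 had 119 and 26.7 CPM in N, 115 and 70.1 CPM in bIP, 149 and 96.5 CPM in bRG, and 236 and 159 CPM in aRG. Both aRG libraries lay above all others, and the 2 N libraries were 4.47-fold apart, with replicate 1 above both bIP libraries and replicate 2 below them. The F test over populations did not pass (edgeR adjusted p = 0.369), and the log2 difference of N over aRG was -1.44 (SE 0.54, adjusted p = 0.132). With the replicate number as a block, EMX2 fell in N by 1.68 against aRG (SE 0.33, edgeR adjusted p = 0.00341). The value depended on the N libraries, at -2.89 without N replicate 1 (edgeR adjusted p = 0.000992) and -0.72 without N replicate 2 (adjusted p = 0.416).

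LHX2, a LIM-homeobox factor that in mouse is needed for cells to take cortical rather than hem identity, had 574 and 175 CPM in N, 759 and 663 CPM in bIP, 774 and 594 CPM in bRG, and 1003 and 883 CPM in aRG. Both N libraries lay below all progenitor libraries, and both aRG libraries lay above all others. The log2 difference of N over aRG was -1.33 (SE 0.42, edgeR adjusted p = 0.069), and those over bIP and bRG were -0.93 and -0.87 (SE 0.41 each). The bIP and bRG libraries overlapped, with a log2 difference of 0.06 (SE 0.41). With the replicate block LHX2 fell in N by 1.48 against aRG (SE 0.30, edgeR adjusted p = 0.00462), while without the block the value was -2.44 without N replicate 1 (adjusted p = 0.000324) and -0.71 without N replicate 2 (adjusted p = 0.251). Its N libraries were 3.28-fold apart, against 1.14 to 1.30-fold in the progenitor populations.

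SP8, a zinc-finger factor that in mouse is high in rostral and medial cortical progenitors, was at the low end of the dorsal factors' counts. It had 8.51 and 1.12 CPM in N (220 and 26 counts), 15.3 and 5.82 CPM in bIP, 23.4 and 13.6 CPM in bRG, and 26.1 and 17.0 CPM in aRG. Both N libraries lay below the bRG and aRG libraries and overlapped with bIP. The log2 difference of N was -1.94 over bRG (SE 0.75, edgeR adjusted p = 0.185) and -2.16 over aRG (SE 0.76, adjusted p = 0.107). With the replicate block SP8 fell in N by 2.31 against bRG (SE 0.51, edgeR adjusted p = 0.0104) and by 2.57 against aRG (SE 0.52, adjusted p = 0.00413). Without the block, the difference from aRG was -4.26 without N replicate 1 (edgeR adjusted p = 0.00266) and -1.34 without N replicate 2 (adjusted p = 0.303). The N libraries were 7.58-fold apart, the widest of any dorsal factor within a population.

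NR2F1 (COUP-TFI), a nuclear receptor that in mouse is high in caudal cortex and stays on in neurons, had 163 and 192 CPM in N, 124 and 323 CPM in bIP, 138 and 284 CPM in bRG, and 183 and 332 CPM in aRG. All populations overlapped, with the single largest log2 difference at -0.54 for N over aRG (SE 0.45, edgeR adjusted p = 0.555). The libraries instead fell apart by replicate number. Within every population replicate 2 was higher, by 0.24 on the log2 scale in N, 1.38 in bIP, 1.04 in bRG and 0.86 in aRG. In the fit with population and replicate number as terms, NR2F1 was 0.88 higher in replicate 2 than in replicate 1 (SE 0.17, edgeR adjusted p = 0.0233), and it was the 1 member called there (1.44% of all 35382 genes tested were called).

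The other members were not called in that fit. EMX2, LHX2, PAX6, SP8, OTX2 and LMX1A were higher in replicate 1 in all 4 populations, EMX1 in 2 of 4, and DLX2 in 1 of 4, so DLX2 leaned the way of NR2F1 in 3 populations (0.96 on the log2 scale, SE 0.72, edgeR adjusted p = 0.667). Further log2 values of replicate 2 over replicate 1 were -1.0001 for EMX2 (SE 0.23, edgeR adjusted p = 0.0529), -1.35 for SP8 (SE 0.35, adjusted p = 0.0843) and -2.06 for LMX1A (SE 0.55, adjusted p = 0.0875). This comparison was added after the data were seen, and its calls changed with the settings. Under DESeq2's Wald test 5 members were among 2015 genes called, and with no filter on low counts 6 were among 1673. EMX2, lower in replicate 2, was among those called under DESeq2 (adjusted p = 0.00185) and with no filter (edgeR adjusted p = 7.02e-07). It was also called with at least 5 CPM in 2 libraries (edgeR adjusted p = 0.0483) and on the human genome (edgeR adjusted p = 0.0358), but not with other size factors. When 1 of the 8 libraries was left out, the log2 value of EMX2 ran from -1.15 to -0.64. ZIC1, a zinc-finger factor of the dorsal midline named here after its values were seen, had 45.9 and 1.04 CPM in N, 253 and 14.6 CPM in bIP, 166 and 23.6 CPM in bRG, and 168 and 48.6 CPM in aRG. It was lower in replicate 2 by 3.39 on the log2 scale (SE 0.43, edgeR adjusted p = 0.00457). SLC1A3, a glial glutamate transporter and radial glia marker, went the other way, at 0.773 and 2.16 CPM in N, 4.82 and 44.8 CPM in bIP, 30.2 and 226 CPM in bRG, and 27.1 and 236 CPM in aRG. What the replicate number stands for is not given in the labels, and its part in the members' spread was not tested beyond the block.

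**Figure D2:**
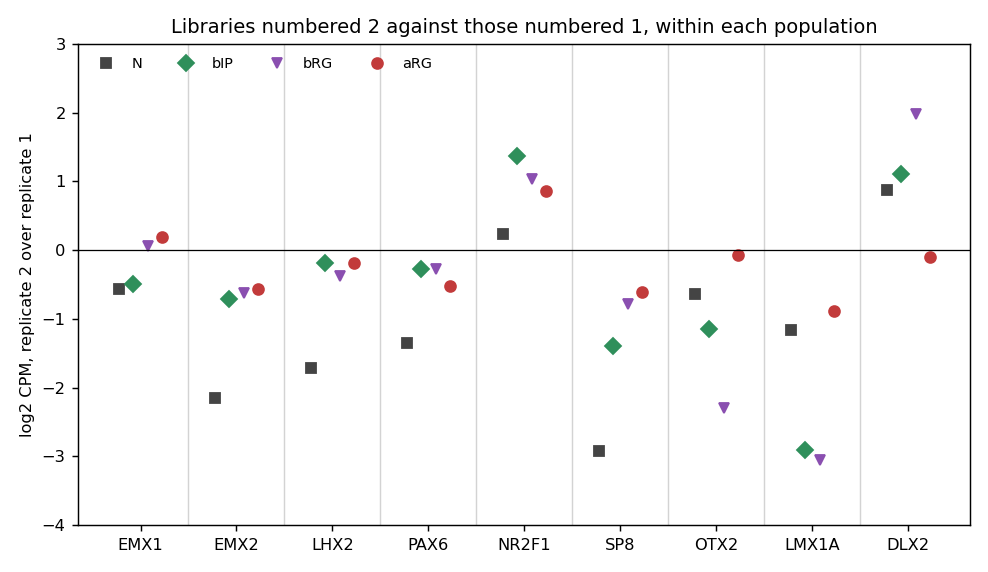
Difference in log2 CPM between the replicate 2 and the replicate 1 library of each population (vertical axis) for the 9 factors; each marker is 1 population, and the line at 0 marks equal levels. NR2F1 lies above 0 in all 4 populations, while EMX2, LHX2, PAX6, SP8, OTX2 and LMX1A lie below 0 in all 4.

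OTX2, a homeobox factor of forebrain and midbrain that in mouse is required for the choroid plexus and is low in most of the cortical field, had 1.01 and 0.647 CPM in N, 3.50 and 1.57 CPM in bIP, 15.8 and 3.21 CPM in bRG, and 28.9 and 27.5 CPM in aRG. Both aRG libraries lay above all others and both N libraries below all others, while the bRG replicates were 4.91-fold apart and overlapped with bIP. The difference among populations passed the test (edgeR F = 19.5, adjusted p = 0.00251). OTX2 fell in N by 5.08 on the log2 scale against aRG (SE 0.78, edgeR adjusted p = 0.00111) and by 3.51 against bRG (SE 0.73, adjusted p = 0.0136). It fell in bIP by 3.47 against aRG (SE 0.71, adjusted p = 0.0197). The bRG over aRG difference was -1.57 (SE 0.65, unadjusted p = 0.0331, edgeR adjusted p = 1) and did not pass. The call against bRG was lost without bRG replicate 1 (-1.98, edgeR adjusted p = 0.139), without N replicate 2 (-3.23, adjusted p = 0.0707) and in a fit of only those 2 populations (-3.53, adjusted p = 0.06). The bIP call was lost without bIP replicate 2 (-3.01, edgeR adjusted p = 0.12).

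LMX1A, a LIM-homeobox factor of the roof plate and cortical hem, had 0.193 and 0.0863 CPM in N (5 and 2 counts), 1.48 and 0.197 CPM in bIP (38 and 5 counts), 8.95 and 1.07 CPM in bRG, and 13.2 and 7.16 CPM in aRG. The N libraries were at or near the floor of 3 counts, which corresponds to 0.0884 to 0.129 CPM in these libraries. N replicate 1 and bIP replicate 2 had 5 counts each, so 0.193 and 0.197 CPM do not set these 2 libraries apart. Replicate 1 was higher everywhere, by 8.35-fold in bRG and 7.50-fold in bIP. The test over populations passed (edgeR F = 10.4, adjusted p = 0.0205). LMX1A fell in N by 6.13 on the log2 scale against aRG (SE 1.26, edgeR adjusted p = 0.00786) and by 5.10 against bRG (SE 1.22, adjusted p = 0.0281). Summed over replicates, 7 counts in N stood against 579 in aRG, a ratio after library scaling of 0.0146 with an exact 95% interval of 0.00586 to 0.0303, and against 310 in bRG, a ratio of 0.0288 (0.0115 to 0.0601). These intervals cover counting error only and are too narrow where PCR copies or both mates of a pair were counted. The log2 difference of bIP over aRG was -3.598 (SE 1.07, edgeR adjusted p = 0.115). With the replicate block LMX1A fell in bIP by 4.15 against aRG (SE 0.76, edgeR adjusted p = 0.00486). The call against bRG was lost without bRG replicate 1 (-2.92, edgeR adjusted p = 0.242), without N replicate 1 (-5.79, adjusted p = 0.0697), without N replicate 2 (-4.66, adjusted p = 0.13) and in a fit of only N and bRG (-5.12, adjusted p = 0.0582).

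**Figure D3:**
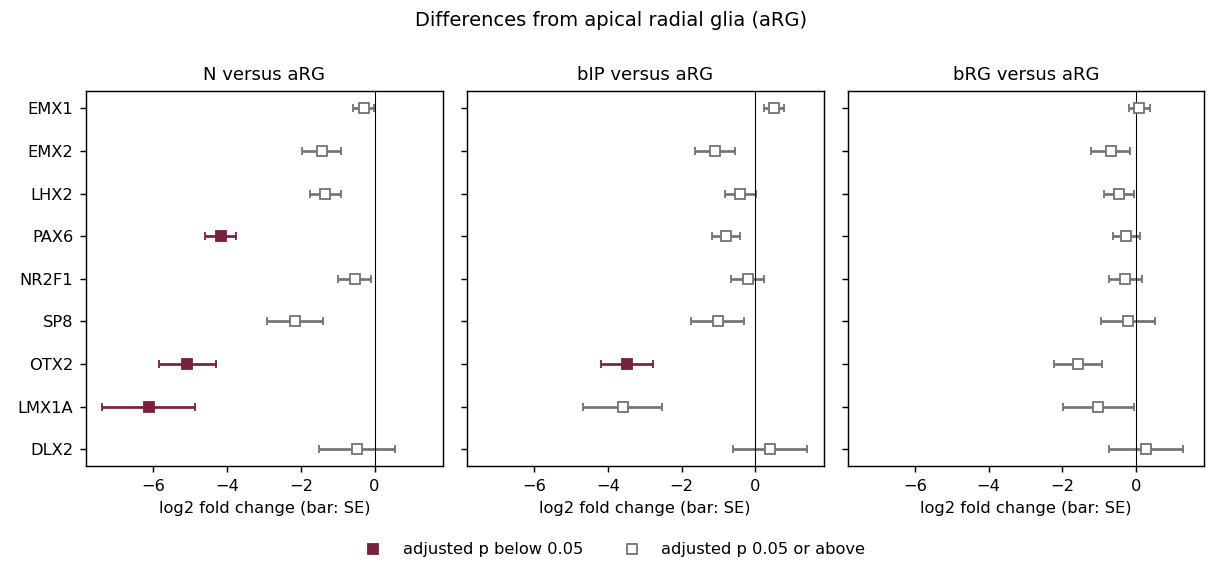
Log2 fold change of the 9 factors in N, bIP and bRG over aRG (horizontal axis; points are fitted values, bars 1 SE, filled points an edgeR adjusted p below 0.05). PAX6, OTX2 and LMX1A are filled in N versus aRG, OTX2 alone in bIP versus aRG, and none in bRG versus aRG.

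Genes of the hem and roof plate, of the choroid plexus and of the eye, where OTX2 is also used, were read from fixed lists beside these levels. Of 17 tested hem and roof plate genes, none was called higher in N than in aRG. Of them 5 were called lower, RSPO2, BMP6, BMP7 and GDF7 among them, beside 4.8% of all genes. The list median was -2.39 log2, beside -0.08 over all genes. WNT2B, MSX1 and RSPO3 were not called among the 4 populations (edgeR F test, adjusted p = 0.851, 0.183 and 0.116). On the human genome WNT2B was higher in N (33.7 and 44.7 CPM) than in aRG (28.1 and 30.1 CPM). BMP7, a secreted signal of the hem, had 2.55 and 2.76 CPM in N, 10.1 and 12.1 CPM in bIP, 38.9 and 76.1 CPM in bRG, and 73.5 and 89.3 CPM in aRG, so its N libraries were the lowest and its bRG and aRG libraries overlapped. RSPO2, a secreted WNT enhancer, had 0.696 and 1.08 CPM in N, 3.26 and 3.46 CPM in bIP, 10.4 and 14.9 CPM in bRG, and 17.1 and 56.9 CPM in aRG. WNT3A, a defining hem signal, was listed at 0 in all 8 libraries on the chimpanzee genome, but on the human genome it had 0 to 20 counts per library, at most 1.68 CPM, in aRG replicate 1, so the zeros are not read as a level.

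Of 11 choroid plexus genes, 6 fell in N against aRG, beside 4.8% of all genes. In bIP against aRG 3 fell (TTR, AQP1 and TRPM3), beside 1.5% of all genes, and TTR fell in bRG against aRG. TTR, the thyroid hormone carrier that choroid plexus secretes, had 15.6 and 24.5 CPM in N, 51.3 and 63.2 CPM in bIP, 36.1 and 48.5 CPM in bRG, and 819 and 3092 CPM in aRG. Its log2 difference of bRG over aRG was -5.53 (SE 0.56, edgeR adjusted p = 0.0138), and it was the 1 gene of 35382 called in that comparison (0.00283%), where 8 genes were called without aRG replicate 2 and 85 without bRG replicate 1. TTR was higher in aRG replicate 2 and OTX2 nearly level between the aRG replicates. The summed choroid plexus list ran from 53.8 to 98.8 CPM in N, bIP and bRG libraries and stood at 996 and 3331 CPM in aRG. TTR alone made up 819 and 3092 CPM of the aRG sums. CLIC6 was at 0 to 1.38 CPM outside aRG and 2.52 and 10.5 CPM in aRG. Among the 4 populations 7 of the 11 genes were called, beside 7.62% of all genes. KCNJ13, IGFBP7, KL and PRLR were not (edgeR F test, adjusted p = 0.933, 0.0734, 0.453 and 0.823). The part of choroid plexus RNA in the OTX2 and LMX1A levels was not tested. Without aRG replicate 2, the library with the most TTR, the log2 differences of N over aRG were -5.14 for OTX2 and -6.53 for LMX1A. TTR was also high in the aRG library that remained, at 819 CPM, so these values do not bear on that part. Of 14 tested mesenchyme, vessel and immune genes 7 fell in N against aRG, beside 4.8% of all genes. The summed list stood at 73.4 and 37.7 CPM in N, 163 and 165 CPM in bIP, 318 and 369.6 CPM in bRG, and 416 and 2052 CPM in aRG. The microglial gene AIF1 was listed at 0 in all 8 libraries on the chimpanzee genome and had at most 5.55 CPM on the human genome. Collagens were highest in aRG replicate 2, with COL1A1 at 5.49 and 5.83 CPM in N, 5.20 and 34.6 CPM in bIP, 102 and 113 CPM in bRG, and 155 and 941 CPM in aRG.

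Of 8 eye genes 3 fell in N against aRG (MITF, PMEL and DCT), beside 4.8% of all genes. DCT, a melanin enzyme, had 8.51 and 4.01 CPM in N, 53.4 and 8.85 CPM in bIP, 124 and 21.5 CPM in bRG, and 162 and 36.0 CPM in aRG. It was higher in replicate 1 throughout, as OTX2 and LMX1A were, but also EMX2, LHX2, PAX6 and SP8. The eye field factors RAX and SIX6 did not exceed 0.691 and 1.32 CPM in any library. The paralog OTX1, expressed in cortical progenitors in mouse, had 17.0 and 7.34 CPM in N, 68.7 and 45.1 CPM in bIP, 107 and 83.3 CPM in bRG, and 122 and 112 CPM in aRG. OTX1 fell in N by 3.26 on the log2 scale against aRG (edgeR adjusted p = 0.000267) and by 2.22 against bIP (adjusted p = 0.0102).

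**Figure D4:**
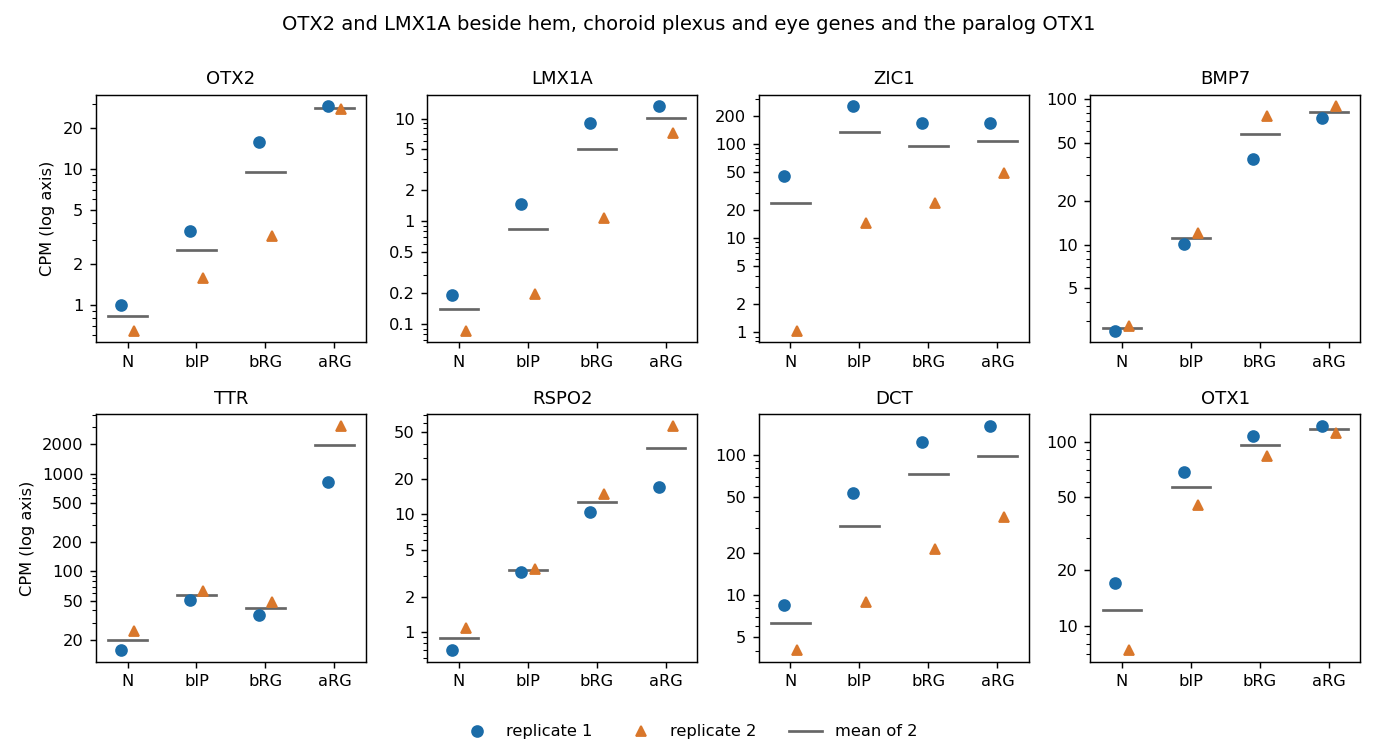
CPM (vertical log axis, each panel with its own range) of OTX2, LMX1A, the hem genes ZIC1, BMP7 and RSPO2, the choroid plexus gene TTR, the eye gene DCT and the paralog OTX1 in the 4 populations; circles are replicate 1, triangles replicate 2, lines the mean of 2. TTR lies at 819 and 3092 CPM in aRG and at most 63.2 CPM elsewhere, while OTX2 is also present in bRG, at 15.8 and 3.21 CPM.

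DLX2, a homeobox factor that specifies GABAergic cells of the ventral telencephalon, had 0.541 and 0.993 CPM in N, 0.893 and 1.93 CPM in bIP, 0.519 and 2.05 CPM in bRG, and 1.10 and 1.03 CPM in aRG. These values are 14 to 65 counts per library, above the floor of 3 counts in each, and no pair of populations passed the test, with the largest log2 difference at -0.88 for N over bIP (SE 1.02, edgeR adjusted p = 0.75). With an SE of about 1 log2 unit, a difference of that size was not detectable at this depth. Its neighbour and paralog DLX1 had 0.155 and 0.432 CPM in N, 1.48 and 7.40 CPM in bIP, 2.11 and 1.48 CPM in bRG, and 0.393 and 0.236 CPM in aRG. The GABA-synthesis genes GAD1 and GAD2 and the ventral factors NKX2-1, GSX2 and LHX6 did not exceed 4.41, 3.92, 1.23, 0.940 and 1.20 CPM.

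Read over the 9 factors together, 3 were called among the 4 populations (PAX6, OTX2 and LMX1A), where 7.62% of all genes tested were called, and 6 with the replicate block (EMX2, LHX2 and SP8 added), where 12.4% were called. For N versus bIP 1 of 9 was called, PAX6 (2.54% of all genes called, 1.48% lower in N), for N versus bRG 3 of 9 (6.01%, 3.39% lower in N) and for N versus aRG 3 of 9 (9.67%, 4.8% lower in N), in each case lower in N. With the block, 6 of 9 were called for N versus aRG, beside 14% of all genes. The fits without 1 library, given next, tested 39464 to 40557 genes against 35382, as the filter follows the smallest group. A call gained there cannot be assigned to the missing library alone. Without N replicate 1, the counts were 6 of 9 over the populations (6.52% of all genes called in that fit), 4 for N versus bIP (2.87%), 5 for N versus bRG (4.78%) and 6 for N versus aRG (7.69%), with EMX2, LHX2 and SP8 added in each. The count for N versus aRG was also 6 without either bRG library (8.9% of all genes in each fit), and that for N versus bRG was 1 (PAX6) without N replicate 2 (3.42%) or without bRG replicate 1 (3%). For bIP versus aRG the call was OTX2 alone, lower in bIP (2.83% of all genes called, 1.5% lower in bIP), with 2 members under the block (6% of all genes) or without bRG replicate 1 (3.31%) or bRG replicate 2 (3.27%), and none without bIP replicate 2 (1.45%). No member was called for bIP versus bRG by edgeR, where 2 had an unadjusted p under 0.05 (1.03% of all genes called), or for bRG versus aRG, where 1 had. Without bRG replicate 2, OTX2 was called for bIP versus bRG, at -2.64 (edgeR adjusted p = 0.0352; 0.907% of all genes called).

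Libraries were also compared without a fit. In N versus aRG, 7 of 9 factors had both N libraries below both aRG libraries, the exceptions being EMX1 and NR2F1, while 26.2% of all genes had that arrangement. The count was 6 of 9 in N versus bRG (27.7% of all genes) and 5 of 9 in N versus bIP (24.5%). In bIP versus bRG PAX6 was lower (20.8%) and EMX1 higher (18.8%). In bIP versus aRG 6 of 9 were lower (20.7%) and EMX1 alone was higher (22.1%), and in bRG versus aRG EMX2, LHX2 and OTX2 were lower (14.1%). The comparisons share libraries, so these counts are not independent of each other. The median log2 difference of the 6 dorsal factors was -1.38 for N over aRG, beside -0.08 over all genes. For bIP over aRG the dorsal median was -0.60, beside 0.05, and for bRG over aRG -0.28, beside 0.02. The 3 others did not move as a group. OTX2, LMX1A and DLX2 were at -5.08, -6.13 and -0.48 for N over aRG and at -3.47, -3.60 and 0.40 for bIP over aRG. For bRG over aRG they were at -1.57, -1.02 and 0.27.

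The wider dorsal field was read from 14 further genes of the pallium, 13 of them tested. Between N and aRG 7 fell and 2 rose, beside 9.67% of all genes called in either direction and 4.8% lower in N. GLI3, a zinc-finger effector of hedgehog signalling needed for dorsal identity in mouse, had 27.3 and 15.6 CPM in N, 139 and 102 CPM in bIP, 367 and 409 CPM in bRG, and 464 and 435 CPM in aRG, and fell in N by 4.39 on the log2 scale against aRG (edgeR adjusted p = 8.91e-06). GLI3 also fell in bIP by 1.90 against aRG (SE 0.30, adjusted p = 0.00474). TFAP2C, an AP-2 factor of cortical progenitors in mouse, fell in N by 5.08 against aRG (SE 0.46, edgeR adjusted p = 3.13e-05). NEUROG1, a proneural factor, had no count in either N library, against 78.7 and 40.4 CPM in bIP and 17.8 and 21.9 CPM in aRG, which is at least 485-fold lower in N than in bIP and at least 162-fold lower than in aRG with the floor of 3 counts taken per library. FEZF2, a determinant of deep-layer neurons, and TBR1, a factor of early-born glutamatergic neurons, rose in N against aRG. TBR1 stood at 467 and 440 CPM in N, 284 and 266 CPM in bIP, 50.2 and 109 CPM in bRG, and 15.0 and 37.9 CPM in aRG.

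Of 22 tested factors of diencephalon, midbrain and hindbrain, 3 fell in N against aRG (IRX2, IRX5 and TCF7L2) and none rose. Of all genes, 4.8% were called lower in N there. TCF7L2, a WNT effector of the thalamus that is also found in glial cells, led by level, at 28.5 and 17.2 CPM in N, 30.3 and 38.2 CPM in bIP, 87.1 and 57.1 CPM in bRG, and 88.2 and 78.7 CPM in aRG. Among midbrain and hindbrain factors, EN2 had 5.45 and 10.4 CPM in N, 5.83 and 2.05 CPM in bIP, 7.13 and 4.51 CPM in bRG, and 4.52 and 1.18 CPM in aRG, with a log2 difference of N over aRG of 1.48 (SE 0.75, edgeR adjusted p = 0.279). EN1, GBX2 and HOXA2 did not exceed 0.227, 0.788 and 1.47 CPM. Among 15 patterning signals and their readouts, 5 fell in N against aRG and FGF18 rose, beside 9.67% of all genes called in either direction. ETV5, a target of FGF signalling, had 3.91 and 1.55 CPM in N, 4.70 and 13.5 CPM in bIP, 110 and 137 CPM in bRG, and 132 and 156 CPM in aRG, and fell in bIP by 3.99 on the log2 scale against aRG (SE 0.52, edgeR adjusted p = 0.00162). FGF8, a signal of the rostral pole, did not exceed 0.691 CPM.

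Partners that could share reads with the members were read as well, since the library type does not mark the strand. EMX2OS, antisense to EMX2, had 86.7 and 78.4 CPM in N, 65.7 and 55.9 CPM in bIP, 93.0 and 84.2 CPM in bRG, and 124 and 114 CPM in aRG, with N replicates close to each other where those of EMX2 were far apart. NR2F1-AS1 had 86.0 and 102 CPM in N, 48.4 and 74.6 CPM in bIP, 32.7 and 53.9 CPM in bRG, and 37.6 and 36.8 CPM in aRG. It rose in N by 1.34 on the log2 scale against aRG (SE 0.32, edgeR adjusted p = 0.0192), where NR2F1 itself was at -0.54. OTX2-AS1 was at most 3.66 CPM and fell in N by 3.88 against aRG (edgeR adjusted p = 0.0138). In the mPanTro3 annotation, used for names alone, LHX2 overlaps a long noncoding RNA and LMX1A overlaps 2.

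The members were also read in the table of counts on the human genome. The chimpanzee over human CPM ratio ranged over the 8 libraries from 0.969 to 1.06 for PAX6, 0.884 to 0.963 for NR2F1, 0.929 to 0.994 for EMX1, 0.9002 to 0.993 for LHX2, and 0.706 to 0.863 for EMX2. It ranged from 0.735 to 0.975 for OTX2, 0.704 to 0.948 for DLX2, 0.798 to 1.02 for SP8 and 0.490 to 0.952 for LMX1A, where the lowest value belongs to the N library with 2 counts. With counts on the human genome PAX6, OTX2 and LMX1A fell in N against aRG by 4.24, 4.85 and 5.70 on the log2 scale (edgeR adjusted p = 0.00013, 0.00112 and 0.0077). LHX2 also passed there for N versus aRG (edgeR adjusted p = 0.0458). NR2F2 (COUP-TFII), the paralog of NR2F1, differed between tables: it was at 0 in all 8 libraries on the chimpanzee genome, while on the human genome it had 14.7 and 16.3 CPM in N, 49.7 and 54.1 CPM in bIP, 35.6 and 19.9 CPM in bRG, and 54.9 and 33.5 CPM in aRG. There it fell in N by 1.74 on the log2 scale against bIP (SE 0.36, edgeR adjusted p = 0.0209) and by 1.51 against aRG (SE 0.36, adjusted p = 0.0144), and its zeros on the chimpanzee genome are not read as a level here.

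Genes whose profile over the 8 libraries was most like a member's were found by Pearson correlation of log2(CPM + 1) among 10826 genes averaging at least 10 CPM. Symbols with LOC, LINC, orf, -AS, -DT or -IT were left out of the search. It is a description over libraries that share populations and replicate numbers. The nearest to PAX6 were AC004540.2, BTN2A2 and STARD9 (r = 0.995, 0.995 and 0.991), and those nearest to OTX2 were TRAM1, COPZ1 and NEK5 (r = 0.993, 0.989 and 0.981). LHX2 was closest to REEP3, DPH3 and DACH1 (r = 0.986, 0.983 and 0.982), SP8 to GM2A, RAP1B and C2CD2 (r = 0.995, 0.984 and 0.983), and EMX2 to TCEAL9, KIAA1143 and PLAGL2 (r = 0.976, 0.975 and 0.974). EMX1 and NR2F1 had looser matches, EMX1 with PDK3, NKD1 and MIR133A1HG (r = 0.966, 0.927 and 0.925) and NR2F1 with RBM19, UROD and SLC27A1 (r = 0.961, 0.947 and 0.935). LMX1A and DLX2 averaged under 10 CPM and were not searched. Among the members themselves, OTX2 ran closest with LMX1A (r = 0.98) and EMX2 with SP8 (r = 0.96) over the 8 libraries.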

How the data were processed

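RNA of 4 sorted populations (2 libraries each) was measured by RNA-seq. What the authors deposited are raw read counts per gene, in 1 table on panTro6 (chimpanzee) and 1 on hg38 (human), made with STAR per the submitters' processing notes. Not given in the sources used here are the STAR version, annotation, counting program and strand setting. In the chimpanzee table counts of 2 (21576 values) outnumbered counts of 1 (16443), so both mates of a pair may have been counted. A row with no gene name (0.00545% to 0.00771% of counts) was left out. Totals on the human genome were 11635116 to 16447389.

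Chimpanzee counts were fitted with edgeR 4.0.16 in R 4.3.3 (filterByExpr, TMM, 1 term per population, all 8 libraries, 4 residual degrees of freedom, glmQLFit and glmQLFTest), leaving 35382 genes and a common biological coefficient of variation of 0.629. The 4 populations were tested together and in 6 pairwise comparisons, with Benjamini-Hochberg adjusted p-values over all genes and a threshold of 0.05. A fold change is the first population over the second. Members, gene lists and tests were chosen with earlier results of these data known. All 9 members are named; from each list and comparison, the named genes are up to 2 past the threshold with the largest change and at least 5 CPM, plus paralogs, overlapping partners and markers of other cell types. ZIC1, SLC1A3 and list members given for their level alone were added after their values were seen.

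Replicate numbers come from the sample titles. Deviations from the population means of libraries with the same number correlated across genes at 0.123 to 0.266 in all 6 pairs of populations, so the number was taken as pairing libraries, and values with it as a block are given where they change a call. The alternatives were DESeq2 1.42.0, other size factors and filters, the human table, the replicate block, fits of only the compared populations, and leaving out each library. The script was tested on simulated data. Some genes of the fixed lists are not reported here. No sequences are shown.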

Additional observations from a re-analysis of the deposited data

How the results depend on the processing

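The PAX6 calls and the N versus aRG calls of OTX2 and LMX1A kept their direction and passed under all 17 alternatives tried for each pairwise comparison. Among single-member results, 1 of the alternatives other than leaving out a library turned a direction, namely DLX2 for bRG over aRG with the replicate block (-0.034), and the cause was not tested. With no filter on low counts, called genes numbered 4649 among the populations (6 members), 2264 for N versus bIP (2 members), 3280 for N versus bRG (5), 1187 for bIP versus bRG (2), 2159 for bIP versus aRG (3), 215 for bRG versus aRG and 1673 for replicate 2 versus replicate 1 (6), and 6 members were called for N versus aRG. Under DESeq2 the genes called were 4898, 2501, 3803, 5221 (N versus aRG, 6 members), 1178, 2303 (2 members), 118 and 2015 (5 members) in the same order. With the replicate block they were 4399 (6 members), 2165, 3594, 1121 for bIP versus bRG, 2122 for bIP versus aRG (2) and 39 for bRG versus aRG, with 6 members for N versus aRG, and the block changed no member's call other than those given with the results. Fits of only the compared populations called 543 genes for N versus bIP, 1392 for N versus bRG (1 member) and 0 for bRG versus aRG. A minimum of 5 CPM in 2 libraries left 0 genes called for bRG versus aRG, where 1318 had an unadjusted p under 0.05 in the edgeR fit, and 964 for the replicate number (2 members). The human table gave 843 for the replicate number (2 members). With 1 library left out, members called ranged from 3 to 6 among populations, 1 to 4 for N versus bIP, 1 to 5 for N versus bRG, 3 to 6 for N versus aRG, 0 to 1 for bIP versus bRG, 0 to 2 for bIP versus aRG and 3 to 5 for the replicate number. Genes called ranged from 415 to 1265 for N versus bIP, 1190 to 2313 for N versus bRG, 140 to 642 for bIP versus bRG, 582 to 1428 for bIP versus aRG, 1 to 85 for bRG versus aRG and 453 to 1170 for the replicate number. Uncalled differences changed sign when 1 library was left out, over the log2 ranges -1.79 to 0.37 (EMX2) and -0.85 to 0.52 (NR2F1) for N over bIP, -0.70 to 0.34 (NR2F1) and -1.44 to 0.53 (DLX2) for N over bRG, and -0.13 to 0.25 (LHX2), -0.76 to 0.69 (NR2F1) and -0.54 to 1.43 (DLX2) for bIP over bRG. The same held over -1.05 to 0.31 (NR2F1) and -0.26 to 0.84 (DLX2) for bIP over aRG, and over -0.93 to 0.21 (NR2F1), -0.68 to 0.11 (SP8), -1.05 to 0.92 (DLX2) and -0.056 to 0.19 (EMX1) for bRG over aRG. With 2 libraries per population and 4 residual degrees of freedom, a lone library left in a population is assumed to vary like the others, and LMX1A and DLX2 rest on few counts.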
